A study of Mus musculus with 19 samples.

Results

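Kinesins are the motor proteins that use ATP to move along microtubules or to shorten them, and their genes were followed here in the cortex of mouse embryos at E14.5 (E, embryonic day). Members were all gene symbols made of Kif, a number and at most 1 letter and 1 further digit, and 37 of the 47643 symbols in the table of expression values matched. Mutant embryos had the genotype GFAP::Cre; SmoM2: the promoter of the glial gene GFAP drives Cre recombinase, and Cre switches on SmoM2, a form of the Hedgehog signal transducer Smoothened that is always active. The other embryos were wildtype controls. The 19 bulk RNA libraries comprised 4 mutant dorsal, 6 control dorsal, 4 mutant medial and 5 control medial libraries. All came from dissected pieces of cortex of the same age, the share of cells in which Cre had acted is not given in the labels, and the protocol text speaks of medial or lateral pieces where the sample labels read dorsal or medial.

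A dividing cell and a neuron use different sets of these motors. Mitotic kinesins build the spindle, move chromosomes and cut the cell apart at the midbody, and their genes are transcribed mainly late in the cell cycle, so that in embryonic cortex they mark dividing radial glia and intermediate progenitors. Transport kinesins carry vesicles, mitochondria and RNA outward along axons and dendrites, and several have copies used mostly in neurons. A few kinesins work in the primary cilium, the organelle where Smoothened acts, and Kif7 among them regulates the Gli transcription factors at the tip of the cilium. The 37 genes were sorted by these roles into 12 mitotic, 4 mainly neuronal transport, 11 broad transport, 6 ciliary and 4 other kinesins. The broad transport class also holds Kif21b, which is enriched in neurons, and Kif17, a dendritic motor.

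The promoters were read first, because the contrast between mitotic and transport kinesins can be shown there without any expression value. Late cell cycle genes often carry the letters TTTGAA, known as the cell cycle genes homology region and bound by the LIN54 subunit of the MuvB core complex, at the start site, together with CCAAT, the letters bound by NF-Y. RefSeq promoters (GRCm38.p6, 250 bases before to 50 after each start) were found for 31 of the 37 kinesins and searched for both motifs on both strands (matches of the 2 motifs can overlap by at most 1 base), and a gene with several promoters was counted once. TTTGAA was present in 9 of 11 mitotic kinesins (81.8%) and in 1 of 11 transport kinesins (9.09%), against 20.2% of all 27025 genes with such a promoter. The windows that hold the match in Kif14, Kif2c, Kif4 and Kif1a lie wholly inside the gene as placed by GENCODE M21. That of Kif14 spans chr1:136467598-136467897, where the gene begins at 136466343. That of Kif1a, the only transport match, spans chr1:93082431-93082730, where the gene begins at 93101951 on the minus strand. All counts here include these windows. CCAAT was present in 7 of 11 mitotic kinesins (63.6%) and in 3 of 11 transport kinesins (27.3%), against 41.1% of all genes. These 11 mitotic kinesins are not the 11 tested for expression below. They include Kif2b, which was too low to test and holds CCAAT, and lack Kif20a, for which no promoter was found. Both motifs stood in 6 mitotic kinesins (54.5%) and in 0 of the 11 transport kinesins, against 7.97% of all genes. A match describes letters in a window and shows no binding.

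The last 120 bases before the start are printed 5′ to 3′ on the strand of the gene. They are given for 3 mitotic kinesins, 2 neuronal transport kinesins and Kif26b, which fell most in the mutants and holds both motifs. Whether the motifs bear on any change in level was not tested. Capitals mark TTTGAA or its reverse complement TTCAAA, and CCAAT or its reverse complement ATTGG. The windows are Kif11 at chr19:37376262-37376381 (plus strand), Kif22 at chr7:127042421-127042540 (minus strand), Kif15 at chr9:122950961-122951080 (plus strand), Kif5c at chr2:49619166-49619285 (plus strand), Kif3c at chr12:3365012-3365131 (plus strand) and Kif26b at chr1:178529005-178529124 (plus strand).
Kif11: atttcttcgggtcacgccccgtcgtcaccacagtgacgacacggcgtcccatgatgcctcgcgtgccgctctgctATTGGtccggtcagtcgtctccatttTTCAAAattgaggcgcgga
Kif22: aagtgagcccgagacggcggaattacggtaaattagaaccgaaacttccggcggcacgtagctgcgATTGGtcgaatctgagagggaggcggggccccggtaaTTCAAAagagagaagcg
Kif15: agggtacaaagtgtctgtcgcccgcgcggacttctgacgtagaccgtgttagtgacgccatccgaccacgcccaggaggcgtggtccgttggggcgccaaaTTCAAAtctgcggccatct
Kif5c: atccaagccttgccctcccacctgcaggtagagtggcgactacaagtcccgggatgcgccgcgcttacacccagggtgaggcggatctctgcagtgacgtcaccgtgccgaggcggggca
Kif3c: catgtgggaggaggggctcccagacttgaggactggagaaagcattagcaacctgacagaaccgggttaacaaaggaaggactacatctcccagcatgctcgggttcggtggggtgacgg
Kif26b: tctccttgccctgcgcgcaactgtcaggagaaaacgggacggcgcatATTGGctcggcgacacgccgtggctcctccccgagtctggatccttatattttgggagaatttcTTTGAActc
In Kif11, Kif15 and Kif22 the TTCAAA run begins at positions -19, -19 and -17 from the RefSeq start, and in Kif11 and Kif22 an ATTGG run lies upstream of it, at -45 and -54. These were chosen because the motif lies just before the start. In the other mitotic kinesins that hold TTTGAA it begins at -228 in Kif14, at -103 in Kif2c and, after the start, between 3 and 20 in Kif18b, Kif20b, Kif23 and Kif4. Kif18a holds neither motif. The positions in Kif14, Kif2c and Kif4 are counted from RefSeq starts that lie inside the gene as placed by GENCODE M21. The windows of Kif5c and Kif3c hold neither motif.

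Expression was given in TPM, a transcript level scaled by gene length to a total of 1000000 per library, so sequencing depth and counting error are unknown and only the spread between libraries can be given. Between 17357 and 18670 genes lay above 0 per library. The Hedgehog targets Gli1, Ptch1 and Hhip were higher in the mutants in both regions, with a summed level of 102 to 137 TPM in mutant dorsal libraries against 5.65 to 7.54 TPM in control dorsal libraries, and 86.0 to 137 TPM in mutant medial libraries against 4.36 to 5.62 TPM in control medial libraries. Nothing in the labels states that each library of a group was a separate embryo; the p-values therefore reflect library-to-library spread, part of which may be technical. Xist and Ddx3y, read from the X and Y chromosomes, marked all mutant embryos and control embryos 1, 5 and 6 as male and control embryos 2, 3 and 4 as female, and the sexes were thus unevenly spread over the genotypes. Markers of radial glia, intermediate progenitors and neurons were above 0 in at least 1 library for every gene of their lists, and no gene of the endothelial, microglial, erythroid, pericyte or choroid plexus lists was at 0 throughout.

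Of the 37 kinesins, 32 reached 1 TPM in at least 4 libraries and were tested. The other 5 stayed near 0. Kif6, a kinesin of motile cilia, lay between 0.43 and 1.02 TPM and Kif19a, which shortens cilia, between 0.146 and 0.876 TPM. Kif17, a dendritic transport motor, lay between 0.0737 and 0.39 TPM. Kif2b and Kif12 were listed at 0 in nearly every library, with maxima of 0.0391 and 0.0383 TPM.

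The most abundant kinesin in all groups was Kif5c, with a mean level of 372 ± 32.3 TPM in mutant dorsal and 439 ± 20.6 TPM in control dorsal libraries (SD, n = 4 and 6). The order below it differed between genotypes. In mutant dorsal cortex Kif11 came next at 223 ± 25.4 TPM, followed by Kif21a at 198 ± 17.1 TPM and Kif5b at 189.9 ± 1.73 TPM, and Kif21a lay within 1 SD of both. In control dorsal cortex Kif5b (180.5 ± 8.95 TPM), Kif21b (176 ± 20.6 TPM) and Kif21a (169.6 ± 11.9 TPM) came next and were not separated by their SDs, followed by Kif3c (143 ± 6.57 TPM), Kif26a (139 ± 10.9 TPM), Kif11 (136 ± 11.03 TPM) and Kif1a (126 ± 8.8 TPM). Thus the highest mitotic motor was second in level in mutant dorsal cortex and the seventh in control dorsal cortex. Mutant medial cortex had the same first 4 as mutant dorsal cortex, with Kif11 at 245 ± 15 TPM, and in control medial cortex Kif21a (209 ± 4.78 TPM) and Kif5b (184 ± 4.59 TPM) stood above Kif11 (166 ± 9.96 TPM).

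The first comparison, mutant against control in dorsal cortex, asks how constant Smoothened activity changed the kinesins there. All 11 tested mitotic kinesins rose, and 7 of the 14 tested transport kinesins fell while 1 rose. Changes are log2 ratios of TPM + 1 with standard error, SE, from limma over all 19 libraries and 13520 genes, and a gene was called at an adjusted p (Benjamini and Hochberg over all tested genes) under 0.05. Over the whole family, 13 of 32 kinesins rose and 9 fell, where 9.93% of all tested genes rose and 27.6% fell; 10 were not called. The libraries did not overlap, all mutant above or all mutant below all control libraries, for 11 kinesins that were higher and 7 that were lower, against 7.25% and 17.6% of all tested genes. In whole tissue, fewer cells of a type and less RNA per cell cannot be told apart. The median log2 change was 0.71 for the mitotic kinesins (range 0.56 to 0.87), -0.31 for the 4 neuronal transport kinesins, -0.05 for the 10 broad transport kinesins and -0.10 for all tested genes.

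In medial cortex the same question gave a like division, with 11 of 11 mitotic kinesins higher and 7 of 14 transport kinesins lower. Altogether 12 of 32 kinesins rose and 9 fell in mutant medial cortex, where 9.44% of all tested genes rose and 30.2% fell; 11 were not called. Libraries did not overlap for 11 higher and 7 lower kinesins, against 7.63% and 22.7% of all tested genes. The median log2 change was 0.51 for the mitotic kinesins (range 0.42 to 0.60), -0.37 for the neuronal transport kinesins, -0.08 for the broad transport kinesins and -0.11 for all tested genes. The balance of all calls depends on scaling: 1343 genes were higher and 3727 lower in dorsal cortex as deposited, against 2109 and 1922 after median-ratio rescaling, and 1276 higher and 4081 lower in medial cortex, against 2179 and 2261. Quantile normalization moved the median of all genes most, to -0.01 in medial cortex. The mitotic calls were the same under both scalings, and transport kinesins called lower numbered 5 dorsally and 6 medially after median-ratio rescaling.

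**Figure D1:**
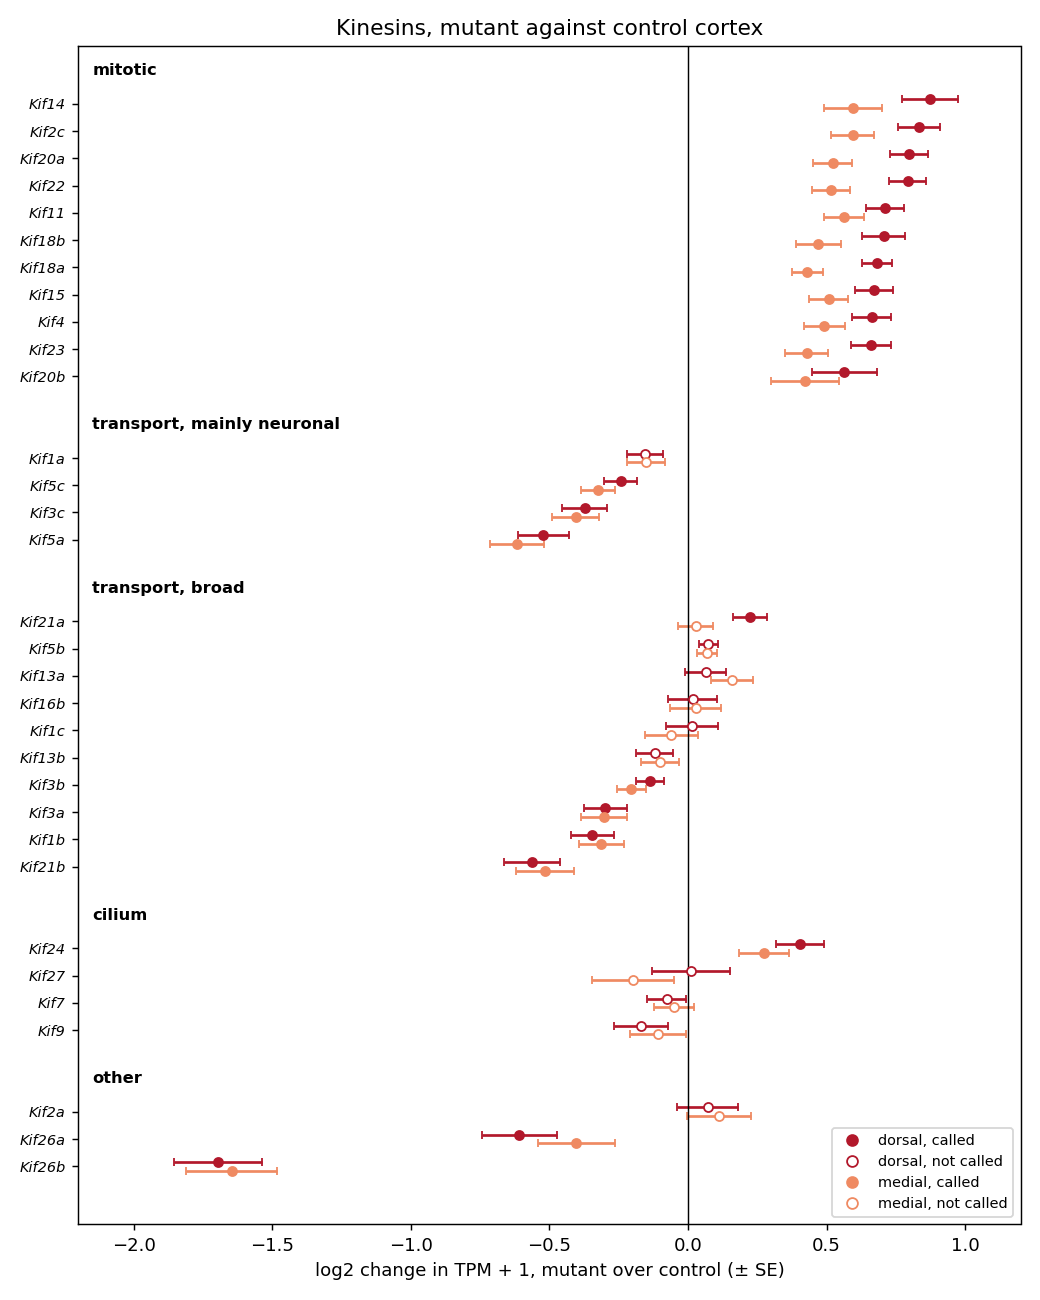
Log2 change in TPM + 1 of the 32 tested kinesins, mutant over control, in dorsal (dark red) and medial cortex (orange), grouped by role; bars are standard errors, and filled points passed an adjusted p of 0.05. All 11 mitotic kinesins lie between 0.42 and 0.87 in both regions, while Kif26b lies at -1.70 and -1.65 and most transport kinesins lie near or below 0.

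Among the spindle motors, Kif11 (chr19:37376403-37421859, plus strand, GENCODE M21 on GRCm38) encodes the bipolar kinesin-5 that slides opposed spindle microtubules apart. Its level was 228, 201, 257 and 206 TPM in mutant dorsal libraries, against 125 to 156 TPM (median 133) in control dorsal libraries. The mutant libraries of medial cortex had 224, 248, 259.6 and 249.1 TPM, against 162, 158, 165, 183 and 159.8 TPM in control medial libraries. No mutant library overlapped a control library in either region, and the log2 change was 0.71 ± 0.07 dorsally (SE; adjusted p = 4.4e-07, limma) and 0.56 ± 0.07 medially (adjusted p = 1.28e-05). Kif15, a kinesin-12 that can take over bipolar spindle support from Kif11, rose by 0.67 ± 0.07 and 0.51 ± 0.07 on the log2 scale in dorsal and medial cortex (adjusted p = 7.94e-07 and 3.54e-05, limma).

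Kif2c (chr4:117159639-117182639, minus strand) encodes MCAK, which takes microtubules apart at kinetochores and so corrects faulty attachments. Its level was 69.7, 65.2, 80.3 and 64.5 TPM in mutant dorsal libraries, against 36.3 to 42.0 TPM (median 38.3) in control dorsal libraries. In mutant medial libraries it was 71.5, 81.9, 80.1 and 79.4 TPM, against 54.1, 53.6, 48.2, 59.0 and 43.4 TPM in control medial libraries. The groups did not overlap in either region, with log2 changes of 0.83 ± 0.08 dorsally (adjusted p = 1.69e-07, limma) and 0.59 ± 0.08 medially (adjusted p = 1.64e-05). Kif18a, which damps the movement of aligned chromosomes, rose by 0.68 ± 0.05 and 0.43 ± 0.06 on the log2 scale in dorsal and medial cortex. Its relative Kif18b, which acts on astral microtubules, rose by 0.71 ± 0.08 and 0.47 ± 0.08.

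Kif22 and Kif4 are chromokinesins, motors that bind chromosome arms. Kif22 averaged 64.4 ± 7.43 TPM in mutant dorsal and 36.6 ± 2.19 TPM in control dorsal libraries (SD, n = 4 and 6), and 70.8 ± 3.91 TPM in mutant medial and 49.2 ± 2.86 TPM in control medial libraries (SD, n = 4 and 5). The log2 changes were 0.79 ± 0.07 (adjusted p = 6.71e-08, limma) and 0.52 ± 0.07 (adjusted p = 1.7e-05). Kif4, an X-linked gene, averaged 88.5 ± 10.8 TPM in mutant dorsal and 55.2 ± 2.81 TPM in control dorsal libraries, a log2 change of 0.66 ± 0.07, and rose by 0.49 ± 0.07 medially. Exons of Kif4 overlap those of Pdzd11 on the other strand over 15.1% of their length, and whether strand was used in quantification is not given in the sources used here.

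The cytokinesis motors act at the spindle midzone and midbody. Kif23 (chr9:61915905-61946774, minus strand) encodes MKLP1, the motor subunit of centralspindlin, and had 74.7, 62.3, 79.8 and 66.5 TPM in mutant dorsal libraries, against 39.3 to 49.3 TPM (median 44.6) in control dorsal libraries. Medially, the mutant libraries had 81.4, 78.7, 88.7 and 81.9 TPM, against 58.3, 69.9, 57.2, 62.9 and 58.2 TPM in control medial libraries. In each region the lowest mutant library exceeded the highest control library, with log2 changes of 0.66 ± 0.07 (adjusted p = 2.18e-06, limma) and 0.43 ± 0.08 (adjusted p = 0.000298). Racgap1, the partner of Kif23 in centralspindlin, rose by 0.58 ± 0.05 in dorsal cortex (adjusted p = 2.18e-07, limma) and by 0.53 ± 0.06 in medial cortex (adjusted p = 1.52e-06).

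Kif14 (chr1:136466343-136531511, plus strand), which recruits citron kinase to the midbody, was the least abundant mitotic kinesin tested and had the largest rise by the mean of both regions. Its level was 12.9, 11.6, 14.2 and 10.5 TPM in mutant dorsal libraries, against 5.48 to 7.1 TPM (median 6.23) in control dorsal libraries. Mutant medial libraries had 11.3, 13.7, 14.6 and 11.6 TPM, against 7.49, 8.26, 7.55, 9.73 and 7.56 TPM in control medial libraries. The ranges were apart in both regions, with log2 changes of 0.87 ± 0.10 dorsally (adjusted p = 3.02e-06, limma) and 0.60 ± 0.10 medially (adjusted p = 0.000244). Kif20a, or MKLP2, which carries the chromosomal passenger complex to the midzone, rose by 0.80 ± 0.07 and 0.52 ± 0.07 in dorsal and medial cortex; 29.3% of its exon length overlaps Cdc23 on the other strand.

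Kif20b, needed in mice for cytokinesis of cortical progenitors, had the smallest rise of the class. It averaged 41.5 ± 5.6 TPM in mutant dorsal and 27.7 ± 3.86 TPM in control dorsal libraries (SD, n = 4 and 6), a log2 change of 0.56 ± 0.12 (adjusted p = 0.00117, limma). In mutant medial libraries it ran from 38.0 to 57.7 TPM, against 30.2 to 42.3 TPM in control medial libraries. Those ranges overlapped, and the medial change of 0.42 ± 0.12 (adjusted p = 0.0103) had an adjusted p of 0.0587 when embryo sex was a covariate.

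The genes that work with the mitotic kinesins were read from lists chosen with earlier results of these data known. Beside their counts, 9.93% of all tested genes rose and 27.6% fell dorsally, and 9.44% rose and 30.2% fell medially. Of 19 spindle and midbody partners, 18 rose in both regions, with median log2 changes of 0.72 dorsally and 0.53 medially; the exception was Numa1, a spindle pole organizer (-0.04 ± 0.08 and 0.02 ± 0.08). Nuf2 and Ndc80, subunits of the outer kinetochore, rose by 0.80 ± 0.07 and 0.74 ± 0.07 dorsally and by 0.56 ± 0.07 and 0.54 ± 0.07 medially. Of 9 regulators that bind mitotic promoters, 6 rose in both regions, among them Mybl2 (1.00 ± 0.09 and 0.79 ± 0.10), Foxm1 (0.79 ± 0.13 and 0.54 ± 0.13) and the dimerization partner Tfdp1 (0.42 ± 0.06 and 0.41 ± 0.06). Of 6 kinesins whose names fall outside the Kif pattern, 3 rose and 1 fell in each region. The mitotic motors Kifc1 (0.83 ± 0.07 and 0.59 ± 0.07), Kifc5b (0.94 ± 0.13 and 0.74 ± 0.14) and Cenpe (0.68 ± 0.13 and 0.43 ± 0.14) rose, and Kifc2, a motor found in neuronal dendrites, fell (-0.40 ± 0.12 and -0.48 ± 0.12; dorsal adjusted p = 0.0586 after quantile normalization, limma). Kifc3 (-0.23 ± 0.13 and -0.25 ± 0.14) and Stard9 (0.00 ± 0.14 and -0.15 ± 0.15) were not called. Kifc1 and Kifc5b are close copies, and how reads were divided between them is not given in the sources used here.

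General proliferation markers moved with the mitotic kinesins. All 8 of 8 rose in both regions, where 9.93% of all tested genes rose dorsally and 9.44% medially. Their median log2 changes were 0.79 dorsally and 0.60 medially. The lowest dorsal p-values were those of Cdk1, the mitotic kinase (0.79 ± 0.06 and 0.61 ± 0.06), and the replication helicase subunits Mcm2 (0.98 ± 0.07 and 0.87 ± 0.08) and Mcm5 (0.91 ± 0.07 and 0.80 ± 0.07). Their summed level was 1864 to 2474 TPM in mutant dorsal libraries against 1104 to 1338 TPM in control dorsal libraries, and 2291 to 2616 TPM in mutant medial libraries against 1394 to 1716 TPM in control medial libraries. Radial glia markers were mixed, with 5 of 8 higher and 2 lower dorsally and 3 higher and 1 lower medially, and their summed level overlapped between genotypes (2543 to 2737 TPM in mutant dorsal, 2458 to 2815 TPM in control dorsal libraries). Sox2 (0.40 ± 0.08 and 0.45 ± 0.08) and Slc1a3 (0.81 ± 0.11 and 0.73 ± 0.12) rose, and Fabp7 fell (-0.43 ± 0.11 and -0.86 ± 0.12). The 5 intermediate progenitor markers included 2 higher and 1 lower dorsally and 1 higher and 1 lower medially. The counts of lower radial glia and progenitor markers did not exceed the shares of all tested genes that fell, 27.6% dorsally and 30.2% medially. Gadd45g changed by 0.37 ± 0.08 dorsally (adjusted p = 0.00172, limma) and 0.12 ± 0.08 medially (adjusted p = 0.277), and Neurog2, a neurogenic transcription factor, fell in both (-0.31 ± 0.07 and -0.29 ± 0.07). The part of any of these in the kinesin result was not tested.

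The transport kinesins were read from the heavy chains of kinesin-1 outward. Kif5a, Kif5b and Kif5c encode 3 closely related heavy chains, of which Kif5b is made in most cells and Kif5a and Kif5c mostly in neurons. Kif5a (chr10:127225696-127263348, minus strand) had 69.9, 78.2, 54.5 and 76.7 TPM in mutant dorsal libraries, against 88.0 to 112 TPM (median 99.6) in control dorsal libraries. In mutant medial libraries it was at 48.2, 45.7, 43.8 and 54.9 TPM, against 68.1, 71.9, 72.3, 73.4 and 86.1 TPM in control medial libraries. Every mutant library lay below every control library of its region, and Kif5a fell by 0.52 ± 0.09 dorsally (adjusted p = 0.000321, limma) and by 0.62 ± 0.10 medially (adjusted p = 9.64e-05) on the log2 scale.

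Kif5c (chr2:49619298-49774778, plus strand) had 384, 411, 339 and 352 TPM in mutant dorsal libraries, against 422 to 479.7 TPM (median 432) in control dorsal libraries. Medially, the mutant libraries had 318, 353, 291 and 334 TPM, against 389, 388, 408, 400.3 and 444 TPM in control medial libraries. The groups were again apart in both regions. The log2 change was -0.24 ± 0.06 dorsally (adjusted p = 0.00389, limma; 0.0726 after median-ratio rescaling) and -0.33 ± 0.06 medially (adjusted p = 0.000479).

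Kif5b did not follow its copies. It had 192, 189, 189.8 and 188 TPM in mutant dorsal libraries, against 169 to 192 TPM (median 182) in control dorsal libraries. Mutant medial libraries had 187, 196, 194 and 195 TPM, against 179.6, 183, 180.0, 189.6 and 188 TPM in control medial libraries. The ranges overlapped, and the log2 change was 0.07 ± 0.03 dorsally (adjusted p = 0.101, limma) and 0.07 ± 0.04 medially (adjusted p = 0.146). Its call depended on scaling: it was higher after median-ratio rescaling (0.17 in both regions, adjusted p = 0.000439 and 0.000418, limma) and after quantile normalization (0.11 and 0.09, adjusted p = 0.0228 and 0.0482), and without control dorsal library 3 the dorsal adjusted p was 0.0418.

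As shares of the summed Kif5 level within a library, which no scale factor on a library changes, Kif5b made up 30.2 ± 1.91% in mutant dorsal and 25.1 ± 0.69% in control dorsal libraries (SD, n = 4 and 6), with the lowest mutant at 27.9% and the highest control at 25.9%. In medial cortex it made up 34.2 ± 1.70% in mutant and 27.7 ± 1.01% in control libraries (SD, n = 4 and 5), again without overlap. Kif5a made up 11.03 ± 1.31% in mutant dorsal and 13.9 ± 0.581% in control dorsal libraries, and 8.52 ± 0.72% in mutant medial and 11.2 ± 0.489% in control medial libraries. Kif5c kept the largest share, 58.8 ± 1.52% in mutant dorsal and 61.0 ± 0.851% in control dorsal libraries, whose ranges overlapped, and 57.3 ± 1.78% in mutant medial and 61.1 ± 0.728% in control medial libraries, whose ranges did not.

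**Figure D2:**
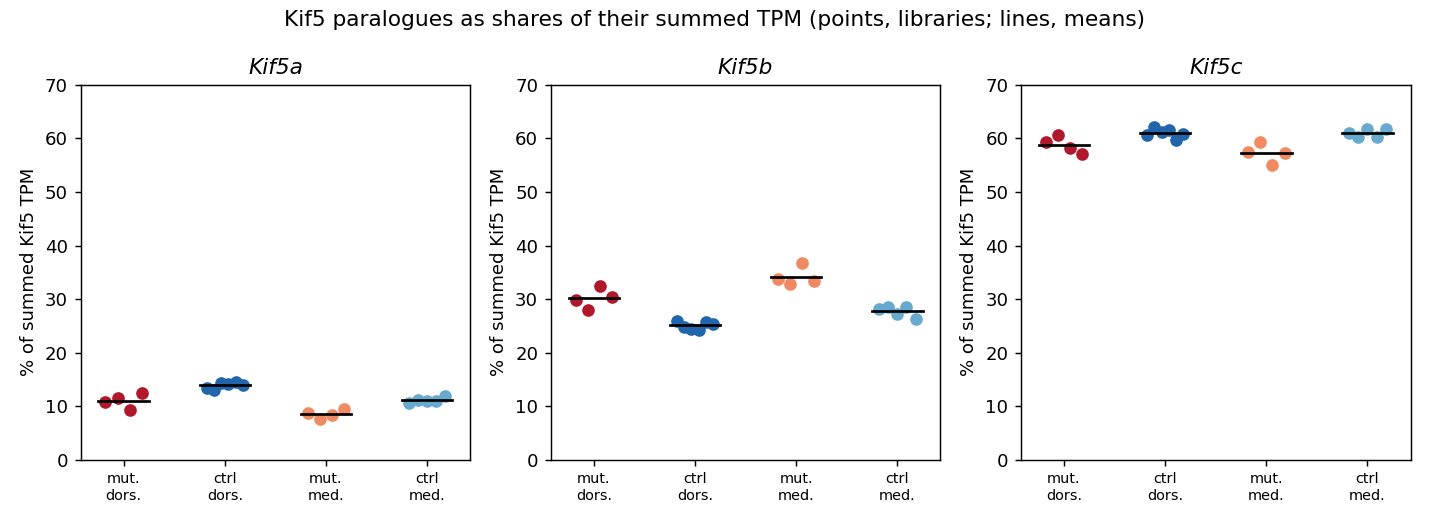
Share of each Kif5 heavy chain in the summed Kif5 TPM of a library (percent, axis from 0), by group; points are libraries and lines are group means. Kif5b takes 30.2% and 34.2% in mutant dorsal and medial cortex against 25.1% and 27.7% in the controls, while Kif5a takes 11.03% and 8.52% against 13.9% and 11.2%.

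Kinesin-2 and kinesin-3 motors followed in part. Kif3c (chr12:3365132-3406494, plus strand), a kinesin-2 subunit found mainly in neurons, had 105, 129, 91.2 and 120.1 TPM in mutant dorsal libraries, against 134 to 152 TPM (median 143) in control dorsal libraries. The mutant libraries of medial cortex had 73.9, 86.3, 74.7 and 91.0 TPM, against 101, 99.5, 115, 110.0 and 115 TPM in control medial libraries. The mutant and control ranges were apart, and Kif3c fell by 0.37 ± 0.08 dorsally (adjusted p = 0.00168, limma) and by 0.40 ± 0.08 medially (adjusted p = 0.00104). Its exons overlap the antisense gene 1110002L01Rik, at 14.04 to 21.8 TPM, over 35.3% of their length.

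Kif3a (chr11:53567379-53601967, plus strand), the subunit shared by axonal transport and by the building of cilia, had 71.4, 83.7, 72.1 and 86.5 TPM in mutant dorsal libraries, against 83.1 to 103 TPM (median 97.8) in control dorsal libraries. Medially, the mutant libraries had 55.6, 61.8, 64.3 and 71.9 TPM, against 70.1, 71.7, 83.4, 82.4 and 84.5 TPM in control medial libraries. The ranges overlapped in both regions, and Kif3a fell by 0.30 ± 0.08 in each (adjusted p = 0.00683 and 0.00704, limma). Its partner Kif3b averaged 42.1 ± 3.37 TPM in mutant dorsal and 46.3 ± 2.09 TPM in control dorsal libraries, a change of -0.14 ± 0.05 (adjusted p = 0.0402). Medially it averaged 38.7 ± 1.23 TPM in mutant and 44.7 ± 2.15 TPM in control libraries, a change of -0.20 ± 0.05 (adjusted p = 0.00489). Neither Kif3b call held after median-ratio rescaling (adjusted p = 0.523 and 0.138, limma), and the dorsal one was also lost without control dorsal library 1, 3, 4 or 5 or mutant dorsal library 1 or 3 (adjusted p from 0.052 to 0.197).

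Kif1a (chr1:93015464-93101951, minus strand), the motor of synaptic vesicle precursors, was the neuronal kinesin not called. It had 110.2, 116, 106 and 118 TPM in mutant dorsal libraries, against 111 to 136 TPM (median 128) in control dorsal libraries. Mutant medial libraries had 89.4, 88.5, 102 and 105 TPM, against 104, 96.2, 104, 113 and 118 TPM in control medial libraries. The ranges overlapped, with log2 changes of -0.16 ± 0.07 (adjusted p = 0.0672, limma) and -0.15 ± 0.07 (adjusted p = 0.0866); with embryo sex as a covariate both passed (adjusted p = 0.0216 and 0.0264), and without control dorsal library 2 the dorsal adjusted p was 0.0251. Without control medial library 3 or mutant medial library 4 the medial adjusted p was 0.0391 or 0.0422.

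Kif1b (chr4:149176319-149307693, minus strand), which carries mitochondria and synaptic vesicle precursors, had 79.2, 76.0, 85.9 and 83.8 TPM in mutant dorsal libraries, against 89.2 to 117 TPM (median 106) in control dorsal libraries. In mutant medial libraries it was at 74.8, 76.2, 90.9 and 88.2 TPM, against 96.2, 95.1, 100.5, 112 and 109 TPM in control medial libraries. All mutant libraries were below all controls, and Kif1b fell by 0.35 ± 0.08 (adjusted p = 0.00225, limma) and by 0.31 ± 0.08 (adjusted p = 0.00541). Its relatives Kif1c (0.01 ± 0.09 and -0.06 ± 0.10), Kif13a (0.06 ± 0.07 and 0.16 ± 0.08), Kif13b (-0.12 ± 0.07 and -0.10 ± 0.07) and the endosome motor Kif16b (0.02 ± 0.09 and 0.03 ± 0.09) were not called in either region. Kif13a passed medially after median-ratio rescaling (0.26, adjusted p = 0.00684, limma).

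The 2 kinesin-4 copies that restrain microtubule growth, Kif21a and Kif21b, went apart. Kif21b (chr1:136131389-136177998, plus strand), enriched in neurons, had 115, 125, 107 and 125 TPM in mutant dorsal libraries, against 144 to 200.4 TPM (median 181) in control dorsal libraries. Medially, the mutant libraries had 83.7, 99.8, 87.1 and 109 TPM, against 123, 114, 137, 155 and 153 TPM in control medial libraries. No ranges overlapped, and Kif21b fell by 0.56 ± 0.10 (adjusted p = 0.000336, limma) and by 0.52 ± 0.11 (adjusted p = 0.000852), the largest dorsal fall among the transport kinesins and the second largest, after Kif5a, in medial cortex.

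Kif21a (chr15:90933276-91049948, minus strand) had 202, 194, 219 and 178 TPM in mutant dorsal libraries, against 157 to 184 TPM (median 168) in control dorsal libraries. Mutant medial libraries had 187, 220.4, 226 and 220.1 TPM, against 205, 210.0, 204, 209 and 216 TPM in control medial libraries. It was the single transport kinesin to rise dorsally, by 0.22 ± 0.06 with overlapping ranges (adjusted p = 0.00813, limma), and its medial change was 0.03 ± 0.06 (adjusted p = 0.761). The difference between these effects was -0.20 ± 0.09 and did not pass (adjusted p = 1, unadjusted p = 0.0392, limma).

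Genes that attach cargo to kinesin-1 and kinesin-2 were mostly lower too. Of 14 light chains and adaptors, 12 fell dorsally, where 27.6% of all tested genes fell, and 11 medially, where 30.2% fell. After median-ratio rescaling 9 were lower in each region and 1 was higher medially. Their median log2 changes were -0.28 and -0.32, against -0.10 and -0.11 for all tested genes, with a summed level of 1164 to 1312 TPM in mutant dorsal libraries against 1423 to 1514 TPM in control dorsal libraries. Klc4 (-0.45 ± 0.03 and -0.44 ± 0.03; adjusted p = 9.93e-09 and 3.45e-08, limma) and Klc2 (-0.24 ± 0.04 and -0.29 ± 0.05), both light chains, and Mapk8ip2, a JNK scaffold that binds light chains (-0.39 ± 0.05 and -0.36 ± 0.06), had the lowest dorsal p-values. Of 20 genes of dynein and dynactin, the motor that moves the opposite way, 11 fell and 1 rose dorsally, and 14 fell and 1 rose medially, against the same 27.6% and 30.2% of all tested genes. Their medians of -0.15 and -0.16 lay close to those of all tested genes, and after median-ratio rescaling only 2 of the 20 were lower dorsally and 1 medially (6 and 8 after quantile normalization). Ndel1 (-0.23 ± 0.05 and -0.24 ± 0.05) fell under each scaling, Dctn5 (-0.14 ± 0.03 and -0.15 ± 0.03) was not called after median-ratio rescaling (adjusted p = 0.334 and 0.409, limma), and Nde1, the form of the dynein regulator used by dividing progenitors, rose (0.32 ± 0.08 and 0.25 ± 0.08).

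Neuron markers mostly fell in the values as deposited, as did the mainly neuronal transport kinesins. The broad transport kinesins had medians of -0.05 dorsally and -0.08 medially, not below the -0.10 and -0.11 of all tested genes. Even so, 4 of the 10 tested fell in each region, where 27.6% and 30.2% of all tested genes fell. Kif21b, enriched in neurons but sorted into the broad class, was among those that fell. Of 14 markers, 10 fell dorsally, where 27.6% of all tested genes fell, and 11 medially, where 30.2% fell. Their median log2 changes were -0.38 and -0.58. After median-ratio rescaling 4 were lower dorsally and 9 medially, and 1 was higher in each region. Of all 13520 tested genes, that scaling left 1922 lower and 2109 higher dorsally, and 2261 lower and 2179 higher medially. The lowest dorsal p-values were those of the adhesion gene L1cam (-0.60 ± 0.09 and -0.71 ± 0.09), the dendritic microtubule gene Map2 (-0.48 ± 0.09 and -0.46 ± 0.09) and Ncam1 (-0.59 ± 0.13 and -0.63 ± 0.13). Their summed level was 3574 to 5363 TPM in mutant dorsal libraries against 5579 to 6464 TPM in control dorsal libraries, and 2598 to 3302 TPM in mutant medial libraries against 3895 to 4994 TPM in control medial libraries. Markers of other cell types were counted in the same way, beside the same shares of all tested genes that fell. The shares that rose were 9.93% dorsally and 9.44% medially. Microglia markers had 4 of 5 tested genes lower dorsally (3 after either rescaling) and 0 medially (summed level 21.7 to 27.3 TPM in mutant dorsal, 33.5 to 45.3 TPM in control dorsal libraries). Of 6 endothelial markers 1 was lower dorsally and 0 medially, and 1 of 4 pericyte markers was lower in each, counts not above the share of all tested genes. Of 6 erythroid markers 0 were called in either region, at summed levels of 3833 to 4788 TPM in mutant dorsal and 4028 to 5624 TPM in control dorsal libraries. No choroid plexus marker of 3 tested was called, and their sum reached 957 TPM in 1 control medial library. Among interneuron and ventral markers, 2 of 8 tested were higher and 0 lower dorsally, and 1 was higher and 4 lower medially. The 4 lower became 3 after median-ratio rescaling and 1 after quantile normalization. After median-ratio rescaling the 2 higher dorsally were Olig2 (2.89) and Gsx2 (1.51). The part of these markers in the kinesin result was not tested.

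Mitotic and transport kinesins were also set against each other as shares of the kinesin total of a library. The 37 kinesins summed to 2450 ± 43.3 TPM in mutant dorsal and 2376 ± 121 TPM in control dorsal libraries (SD, n = 4 and 6), and to 2405 ± 121 TPM in mutant medial and 2360 ± 97.0 TPM in control medial libraries (SD, n = 4 and 5), with overlapping ranges. Of this total the mitotic kinesins took 34.7 ± 3.24% in mutant dorsal and 21.6 ± 1.19% in control dorsal libraries, and 39.8 ± 1.40% in mutant medial and 28.3 ± 1.85% in control medial libraries. Transport kinesins took 59.0 ± 2.87% in mutant dorsal and 69.6 ± 1.16% in control dorsal libraries, and 54.7 ± 1.098% in mutant medial and 64.8 ± 1.87% in control medial libraries. The transport level was 1.72 ± 0.233 times the mitotic level in mutant dorsal and 3.23 ± 0.23 times in control dorsal libraries, and 1.38 ± 0.0731 times in mutant medial and 2.30 ± 0.227 times in control medial libraries. Mutant dorsal library 3 had the most mitotic (38.9%) and the least transport share (55.2%) of its group and lay among the mutant medial libraries. These shares describe the libraries and carry no test.

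**Figure D3:**
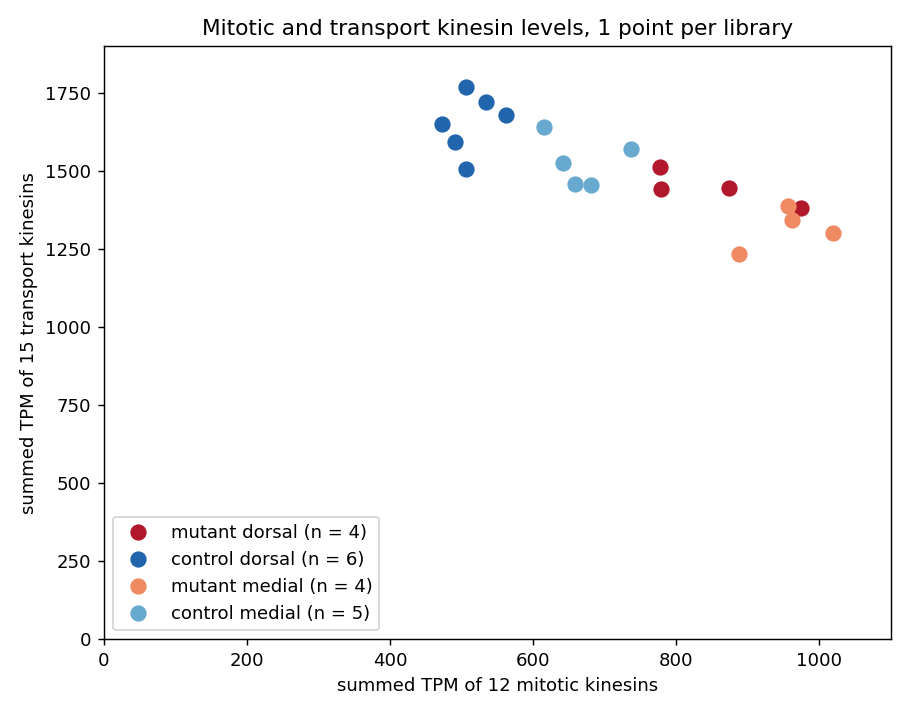
Summed TPM of the 12 mitotic kinesins (x axis) and of the 15 transport kinesins (y axis), both axes from 0, with 1 point per library coloured by group. Mutant dorsal libraries lie at 777 to 975 TPM mitotic and 1382 to 1512 TPM transport, against 473 to 563 and 1507 to 1768 TPM in control dorsal libraries.

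The ciliary kinesins showed no shared direction. Kif7 (chr7:79698098-79715720, minus strand), the kinesin of the Hedgehog pathway, had 18.8, 16.9, 20.9 and 18.8 TPM in mutant dorsal libraries, against 18.6 to 23.4 TPM (median 19.1) in control dorsal libraries. The mutant libraries of medial cortex had 21.7, 24.4, 24.8 and 23.5 TPM, against 23.9, 26.0, 22.6, 26.9 and 23.2 TPM in control medial libraries. The ranges overlapped in both regions, with log2 changes of -0.08 ± 0.07 (adjusted p = 0.415, limma) and -0.05 ± 0.07 (adjusted p = 0.617), in libraries where Gli1 differed by 4.51 ± 0.16 and 4.74 ± 0.16.

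Kif24 (chr4:41390745-41464887, minus strand), which keeps cilia from forming on the mother centriole, was the ciliary member that rose. Its level was 6.37, 5.53, 6.6 and 4.98 TPM in mutant dorsal libraries, against 3.68 to 5.04 TPM (median 4.00) in control dorsal libraries. Medially, the mutant libraries had 7.24, 6.45, 7.94 and 6.84 TPM, against 5.79, 5.75, 5.32, 6.07 and 5.58 TPM in control medial libraries. The ranges overlapped dorsally and not medially, with log2 changes of 0.40 ± 0.09 (adjusted p = 0.00142, limma) and 0.27 ± 0.09 (adjusted p = 0.0214); the medial call was lost with embryo sex as a covariate (adjusted p = 0.0878) and without mutant medial library 3 (adjusted p = 0.0783). Kif27, a copy of Kif7 with a role in motile cilia, changed by 0.01 ± 0.14 and -0.20 ± 0.15, and Kif9, a motile cilium motor, by -0.17 ± 0.10 and -0.11 ± 0.10, none of them called. Kif9 lay only between 0.514 and 1.19 TPM, a level at which log2 changes of TPM + 1 are understated. Of 8 listed markers of motile cilia, only 3 were high enough to test. Of these 3, 2 fell dorsally (1 after either rescaling) and 3 medially (2 after quantile normalization). Their master regulator Foxj1 was among them (-0.59 ± 0.17 and -0.82 ± 0.18). All 8 summed to 8.69 to 9.43 TPM in mutant dorsal and 11.9 to 13.4 TPM in control dorsal libraries. Medially the sums overlapped, at 7.22 to 13.25 TPM in mutant and 12.97 to 21.13 TPM in control libraries. Of all tested genes 27.6% fell dorsally and 30.2% medially.

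Kif26b (chr1:178529125-178939200, plus strand), an atypical kinesin known in mice from kidney development and from Wnt5a signalling, had the largest change of any kinesin. It had 3.67, 3.66, 4.43 and 5.04 TPM in mutant dorsal libraries, against 12.7 to 18.3 TPM (median 16.2) in control dorsal libraries. Mutant medial libraries had 3.02, 4.24, 2.82 and 5.79 TPM, against 14.46, 10.1, 17.1, 16.6 and 13.6 TPM in control medial libraries. The highest mutant library lay far below the lowest control library in each region, and Kif26b fell by 1.70 ± 0.16 dorsally (adjusted p = 2.51e-07, limma) and by 1.65 ± 0.16 medially (adjusted p = 8.95e-07). Its promoter window, printed above, holds TTTGAA at -9 and ATTGG at -73, and their part in its level was not tested.

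Kif26a (chr12:112146208-112181747, plus strand), the related gene that limits Ret signalling in mouse enteric neurons, had 82.1, 91.5, 81.6 and 111 TPM in mutant dorsal libraries, against 125 to 153 TPM (median 142) in control dorsal libraries. In mutant medial libraries it was at 50.4, 71.2, 61.3 and 90.5 TPM, against 76.9, 74.4, 93.0, 109 and 94.0 TPM in control medial libraries. The ranges were apart dorsally, where Kif26a fell by 0.61 ± 0.13 (adjusted p = 0.0019, limma), and overlapped medially, where the change of -0.40 ± 0.14 (adjusted p = 0.0283) was lost after median-ratio rescaling (adjusted p = 0.108) and without mutant medial library 1 or 3 or control medial library 4, 5 or 6 (adjusted p from 0.0548 to 0.121). Kif2a, a microtubule depolymerizer that limits axon branching in mice, changed by 0.07 ± 0.11 and 0.11 ± 0.11 and was not called. Its exons overlap those of Dimt1 on the other strand, at 22.5 to 31.5 TPM, over 19.2% of their length.

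**Figure D4:**
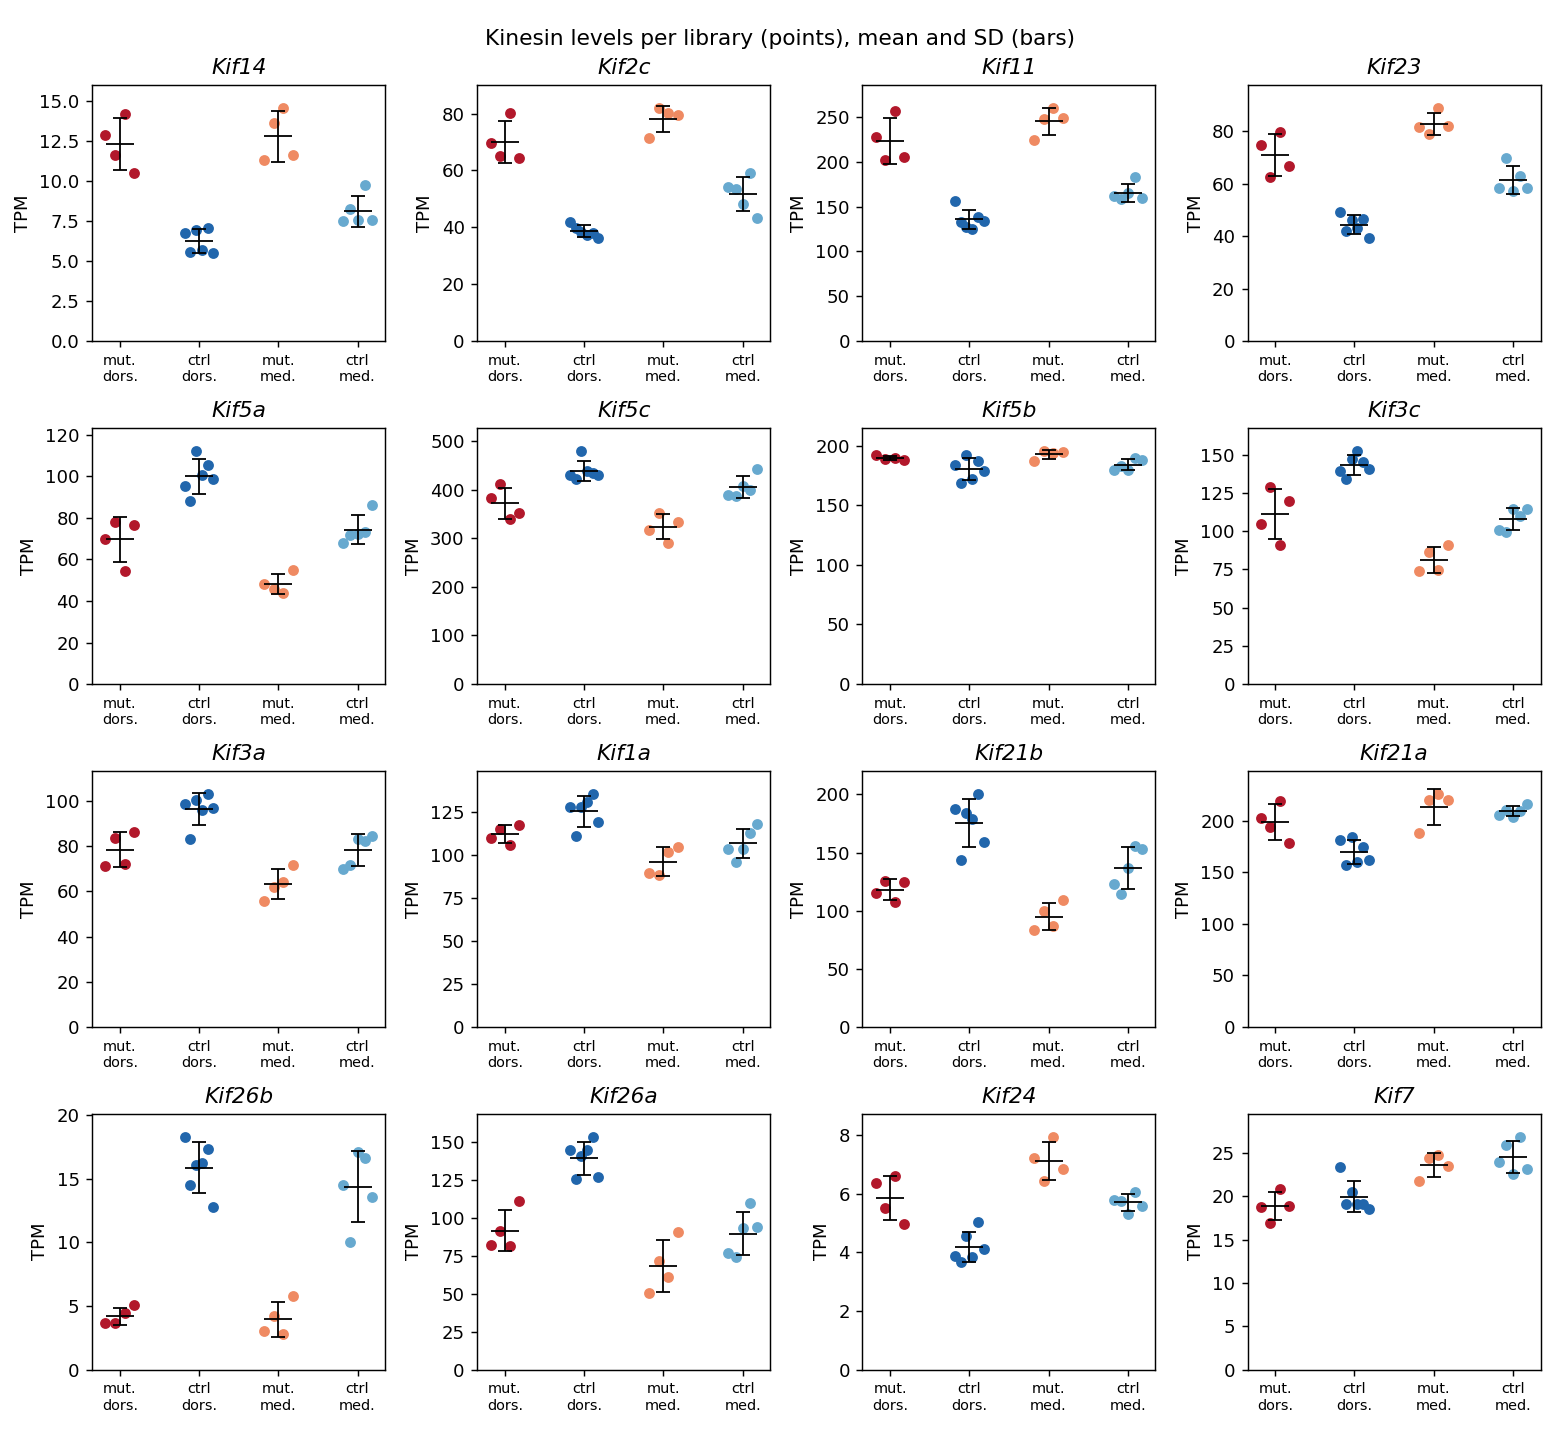
TPM of 16 kinesins in every library (points; axes from 0), with mean and SD of mutant dorsal, control dorsal, mutant medial and control medial libraries from left to right. Kif14, Kif2c, Kif11 and Kif23 are higher in all mutant than in all control libraries of a region, Kif26b is lower (2.82 to 5.79 TPM against 10.1 to 18.3 TPM), and Kif5b and Kif7 overlap between genotypes.

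The difference between the medial and the dorsal effect asks whether region changed the response of a kinesin. In limma 0 of 32 kinesins passed in either direction, where 0.0074% of all tested genes were higher and 0% lower in that contrast. At an unadjusted p under 0.05 there were 6 kinesins, all with a smaller medial than dorsal value, against 3.34% of all tested genes in either direction. They were Kif18a, Kif20a, Kif22, Kif23 and Kif2c and the transport motor Kif21a. The difference was negative for all 11 mitotic kinesins, from -0.28 to -0.14 with a median of -0.23, and the lowest adjusted p was 0.895, for Kif18a (-0.25 ± 0.08). Adding the embryo as a random block gave no call either (for Kif23, adjusted p = 0.171). The mitotic effect was therefore not shown to differ between regions at this number of libraries.

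Kinesins were also compared between medial and dorsal cortex within each genotype. These comparisons reuse the libraries of the genotype comparisons, so their values are given beside them and not as separate evidence. In control cortex 16 of 32 kinesins were higher and 6 lower in medial than in dorsal libraries, where 17.6% of all tested genes were higher and 14.9% lower; libraries did not overlap for 14 higher and 3 lower kinesins, against 11.1% and 9.39%. All 11 mitotic kinesins were higher medially, by 0.29 to 0.48 with a median of 0.40. Without control dorsal library 2, 3, 4 or 6 or control medial library 3 or 5 Kif20b was no longer called (adjusted p from 0.0519 to 0.0891). The largest differences were those of Kif20a (0.48 ± 0.06; adjusted p = 6.52e-05, limma) and Kif23 (0.46 ± 0.07; adjusted p = 0.000138). The neuronal motors Kif5a (-0.42 ± 0.09), Kif3c (-0.41 ± 0.08) and Kif1a (-0.23 ± 0.06) were lower medially, and Kif5c (-0.11 ± 0.06; adjusted p = 0.129) was not called. Proliferation markers were higher medially in 7 of 8 and neuron markers lower in 9 of 14 and higher in 1, and their part in this was not tested.

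In mutant cortex 3 of 32 kinesins were higher and 6 lower in medial than in dorsal libraries, where 8.03% of all tested genes were higher and 10.8% lower; libraries did not overlap for 2 higher and 2 lower kinesins, against 7.11% and 8.05%. All 4 neuronal motors were lower medially, with log2 differences of -0.52 ± 0.10 for Kif5a (adjusted p = 0.00385, limma), -0.44 ± 0.09 for Kif3c (adjusted p = 0.00422), -0.22 ± 0.07 for Kif1a (adjusted p = 0.0349) and -0.20 ± 0.06 for Kif5c (adjusted p = 0.0405). The calls for Kif1a, Kif5c and Kif3a rested on single libraries: Kif1a was lost without mutant dorsal library 1, 2 or 4 or mutant medial library 1 or 2 (adjusted p from 0.0517 to 0.108), Kif5c without mutant dorsal library 1, 2 or 4 or mutant medial library 1 or 3 (0.0546 to 0.17), and Kif3a without mutant dorsal library 2 or 4 or mutant medial library 1 (0.0712 to 0.0835). No mitotic kinesin was called, although 6 of 11 had an unadjusted p under 0.05 and all 11 estimates were positive (0.05 to 0.23, median 0.17). With the embryo as a random block, since same-numbered dorsal and medial libraries of a genotype deviated together, 8 of 11 mitotic kinesins passed, Kif23 by 0.23 (adjusted p = 0.00258). The number also rested on mutant dorsal library 3, the library richest in mitotic kinesins of its group, and without it 9 mitotic kinesins passed.

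A few other kinesins differed by region in both genotypes. Kif7 was higher medially by 0.31 ± 0.08 in mutant cortex (adjusted p = 0.00985, limma) and by 0.28 ± 0.07 in control cortex (adjusted p = 0.00313). Kif1c, a Golgi and vesicle motor, averaged 22.5 ± 2.93 TPM in mutant medial and 17.2 ± 2.6 TPM in mutant dorsal libraries, and 23.4 ± 1.92 TPM in control medial and 16.9 ± 1.25 TPM in control dorsal libraries, with log2 differences of 0.37 ± 0.10 (adjusted p = 0.0169) and 0.44 ± 0.09 (adjusted p = 0.00093). Kif16b was higher medially by 0.32 ± 0.10 (adjusted p = 0.0264) and 0.31 ± 0.08 (adjusted p = 0.00777). Kif26a was lower medially, with differences of -0.44 ± 0.15 in mutant cortex (adjusted p = 0.0457) and -0.64 ± 0.13 in control cortex (adjusted p = 0.001), whereas Kif26b was not called between regions in either genotype (-0.10 ± 0.17 and -0.15 ± 0.15). In mutant cortex the calls for Kif1c, Kif16b and Kif26a were each lost in some fits that left out 1 library. The highest adjusted p was 0.08 for Kif1c (lost without mutant dorsal library 2 or mutant medial library 3), 0.11 for Kif16b (mutant dorsal library 2 or 4, mutant medial library 1 or 3) and 0.162 for Kif26a, which was lost without any control dorsal library, mutant dorsal library 2 or 4, control medial library 4 or 6, or mutant medial library 1, 2 or 3.

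Read over all 4 groups by their means, mitotic kinesins were highest in mutant medial cortex and lowest in control dorsal cortex, and neuronal motors the other way round. Between mutant medial and mutant dorsal cortex 0 of 11 mitotic kinesins were called in the main fit, and the libraries of each overlapped. That fit and those ranges leave out the pairing of regions by embryo. With the embryo as a random block most of the 11 passed, as given above. Kif5a averaged 48.1 ± 4.87 TPM in mutant medial, 69.9 ± 10.8 TPM in mutant dorsal, 74.4 ± 6.85 TPM in control medial and 100 ± 8.3 TPM in control dorsal libraries, and the 2 middle groups lay within each other's spread. Kif2c averaged 78.2 ± 4.61, 69.9 ± 7.31, 51.7 ± 5.98 and 38.7 ± 2.00 TPM in the same order of groups, and its mutant medial and mutant dorsal libraries overlapped.

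**Figure D5:**
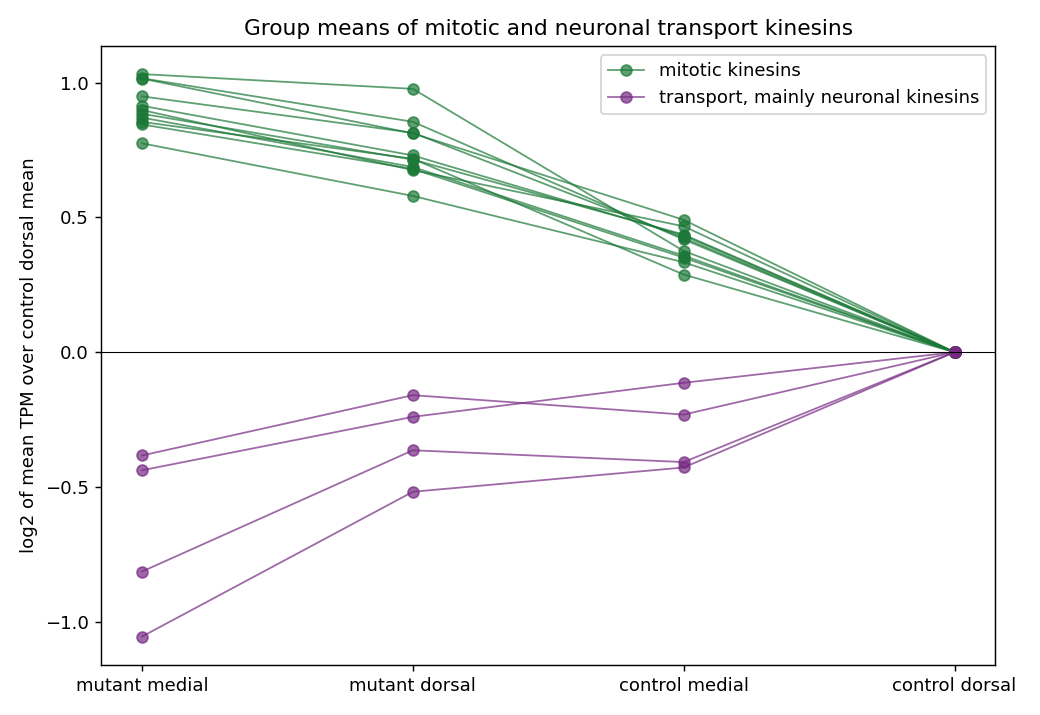
Group means of the 11 tested mitotic kinesins (green) and the 4 mainly neuronal transport kinesins (purple) as log2 of the mean TPM over the control dorsal mean; lines join the values of a gene and imply no sequence of groups. Every mitotic kinesin has its highest mean in mutant medial and its lowest in control dorsal cortex, and all 4 neuronal transport kinesins, with Kif5a and Kif3c lowest, show the reverse. No mitotic kinesin was called between mutant medial and mutant dorsal cortex in the main fit, while most passed with the embryo as a random block.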

How the data were processed

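Values were the TPM deposited by the authors, 1 column per library, summing to 1000000 in each; per the labels' protocols the RNeasy Micro Kit served for RNA and the TruSeq Stranded Total RNA Kit for libraries, and per the submitters' processing notes the genome build was mm10. For the aligner, the quantifier and its strand setting, the sources used here name none, and depth is unknown.

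From these, log2(TPM + 1) was fitted over all 19 libraries with 1 mean per group, using limma (version 3.58.1, with statmod 1.5.0, under R 4.3.3), empirical Bayes with trend and robust settings, and Benjamini-Hochberg adjustment over the 13520 genes that reached 1 TPM in 4 or more libraries (threshold 0.05). Changes on this scale understate those of low genes. The fit was tested on simulated data. Levels given as mean ± SD are plain TPM. Alternatives were no filter, a pseudocount of 0.1, median-ratio and quantile scaling, embryo and replicate number blocks, a sex covariate and leaving out each library; the rescaled counts for partner and marker lists were added after seeing the data. Members, classes and gene lists were chosen with earlier results of these data known, so no p-value over a list is given. Named in full were, per class, the 2 largest rises and falls among called members and a fixed set of 9 (Kif7, Kif11, Kif23, Kif5a, Kif5b, Kif5c, Kif1a, Kif3a, Kif26b), and of other lists up to 3 genes with the lowest dorsal adjusted p. Deviations from group means of libraries with the same genotype and number in the other region correlated at r = 0.549 to 0.795 in 9 pairs, which is where the pairing of embryos comes from. The titles number the control medial libraries 2 to 6 and the descriptions 1 to 5; title numbers were used throughout, for the embryo block and for naming libraries, and with them the sex read from Xist and Ddx3y matched in every pair. Libraries with the same number in the other genotype correlated at -0.436 to 0.138 in 7 pairs and were not taken as paired. Positions come from GENCODE M21 on GRCm38 and promoters from RefSeq on GRCm38.p6. Python 3.11.15, pandas 2.3.3 and matplotlib 3.10.9 were used for tables and figures.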

Additional observations from a re-analysis of the deposited data

Results flagged for a closer look

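Within groups of 4 to 6 libraries, 128 combinations of a tested kinesin and a group were looked at for a library far from the rest, and 4 stood out, where chance flags about 1 in 20, or 6.4. Kif11 in control medial library 5 was at 183 TPM, with the others of its group at 158 to 165 TPM, and all mutant medial libraries still lay above it. Kif21a in mutant medial library 1 was at 187 TPM, with the others at 220.1 to 226 TPM. Kif3a in control dorsal library 2 was at 83.1 TPM, with the others at 96.3 to 103 TPM. Kif5c in control dorsal library 3 was at 479.7 TPM, with the others at 422 to 438 TPM.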

How the results depend on the processing

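No kinesin call was reversed in any of the 26 alternatives per result. Calls kept their side of the threshold in 815 of 832 fitted values in dorsal cortex, 813 of 832 in medial cortex, 832 of 832 for the difference between effects and 824 of 832 for region in controls. Region in mutant cortex was least stable, with 753 of 832. There the 3 kinesins called higher became 13 with the embryo as a random replicate block, 7 with the title number as a fixed replicate block, and 1 to 13 when 1 library was left out. The 6 called lower became 3 with no filter and 2 to 8 when 1 library was left out. The 0 mitotic kinesins called higher became 1 after median-ratio or quantile scaling, 8 with the embryo block, 3 with the number block and 0 to 9 when 1 library was left out. The 5 transport kinesins called lower became 3 with no filter and 2 to 7 when 1 library was left out. The cause was not tested. In the other comparisons the replicate block moved no count of calls by over 1.5 times; it ended the dorsal call of Kif3b (adjusted p = 0.0627, limma) and gave one for Kif5c between control regions (adjusted p = 0.0251). Depth is unknown, so no counting error can be given for levels near 0.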
